A study of Drosophila melanogaster with 3 samples.

Results

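Of 4990 reproducible binding sites of Blimp-1 in Drosophila melanogaster prepupae, 1357 (27.2%) had their summit in an intron of a protein-coding gene, outside every annotated exon, and over 1000 and up to 10000 bp from the nearest protein-coding transcription start site (TSS). These are called intronic sites. The other sites comprised 2303 promoter sites, with a summit within 1000 bp of a TSS, 362 deep intronic sites beyond 10000 bp, 374 intergenic sites up to 5000 bp from a TSS, 373 farther intergenic sites and 221 others. The 3 samples were biological replicates of a single group: pooled male and female whole prepupae, of unknown age, of a transgenic strain carrying Blimp-1 with green fluorescent protein (GFP) at its C terminus. Chromatin was sheared by sonication to 200 to 800 bp, precipitated with an antibody against GFP and sequenced. The labels name no treatment and no other genotype, the sources used here do not give the promoter that drives the transgene, and the control experiment named as possible was not analysed here. Whole animals hold every cell type, so that weak binding in many cells and strong binding in few cells cannot be told apart.

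Blimp-1 is a transcriptional repressor with zinc fingers. Ecdysone, the steroid that triggers metamorphosis, switches its gene on, and in Drosophila the decay of the protein helps to time the expression of ftz-f1 before pupation. Its mammalian counterpart, PRDI-BF1, binds sequences built around GTGAAAG. Introns of insect genes, above all long first introns, are known to hold enhancers and internal promoters beside the sequence that is spliced out.

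Sequences of some of the strongest sites show what lay under the summits. For each, the 11 bases closest to the PRDI-BF1 consensus within 100 bp of the summit are in capitals, with their flanks in lower case, in the orientation of the match. They were read from genome release 6 (dm6). The first 5 are among the 12 strongest intronic sites and differ from the consensus at 1 or 2 positions. A match with at most 2 mismatches was also found in 50.4% of windows 500 bp from intronic summits.
Kdm2, chr3R:9057685-9057745, plus strand: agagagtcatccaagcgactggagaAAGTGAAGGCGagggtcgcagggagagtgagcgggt
mol, chr2L:14995726-14995786, plus strand: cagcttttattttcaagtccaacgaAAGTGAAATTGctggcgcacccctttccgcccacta
Eip74EF, chr3L:17577946-17578006, minus strand: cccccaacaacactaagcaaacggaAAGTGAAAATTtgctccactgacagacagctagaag
Eip75B, chr3L:17968627-17968687, minus strand: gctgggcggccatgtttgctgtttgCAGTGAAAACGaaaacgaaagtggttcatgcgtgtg
dpy, chr2L:4589004-4589064, plus strand: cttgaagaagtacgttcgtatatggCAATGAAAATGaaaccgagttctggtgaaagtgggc
The next 4 are from the strongest intronic sites that hold a full match.
Pdp1, chr3L:7818557-7818617, plus strand: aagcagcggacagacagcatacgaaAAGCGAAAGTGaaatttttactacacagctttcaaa
Psa, chr3L:1518870-1518930, minus strand: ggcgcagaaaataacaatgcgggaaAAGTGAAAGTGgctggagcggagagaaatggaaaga
qless, chr3R:31248434-31248494, plus strand: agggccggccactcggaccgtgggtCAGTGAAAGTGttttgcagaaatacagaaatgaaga
siz, chr3L:21054385-21054445, plus strand: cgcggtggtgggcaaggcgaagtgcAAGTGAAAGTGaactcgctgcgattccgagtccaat
Counted from 1 at the 5′ end of the consensus, the Kdm2 site carries A8G, the mol site G9T, the Eip74EF and Eip75B sites G9A, and the dpy site G3A and G9A. In the dpy stretch a GTGAAAG also stands outside the capitals. The closest match of the CG11050 site, which also ranked among the 12, has G5C and A7C.

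The share of intronic sites was similar in the replicates. When the 4990 strongest merged regions of each replicate were sorted in the same way, 1290 in replicate 1, 1334 in replicate 2 and 1510 in replicate 3 were intronic (1378 ± 116, SD, n = 3). Of the 1357 intronic sites, 889 remained when those supported by both replicates 2 and 3 were kept, leaving out replicate 1, and 936 and 966 without replicate 2 and without replicate 3. Introns that met the rule, called eligible introns, covered 28.8 Mb or 21.5% of the chromosome arms. Intronic sites thus stood at 47.1 per Mb of eligible intron, against 84.9 per Mb within 1000 bp of a TSS and 37.3 per Mb over the arms as a whole. The replicates gave 44.8, 46.3 and 52.4 intronic sites per Mb, and replicate 3 was the highest. Among the arms, the density was 53.3 per Mb on 3L, 51.9 on 2R, 48.6 on X, 45.5 on 3R and 39.6 on 2L. The small chromosome 4, known to be rich in heterochromatin, held 0 intronic sites in 0.399 Mb, where 3 sites would make 7.52 per Mb.

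First introns held more sites for their length than later introns. A site was put in the first class where its intron was the first of every transcript that spans it, in the later class where it was the first of none, and in the mixed class otherwise. The classes held 596, 407 and 354 sites. Of the 1003 sites in the first and later classes together, 59.4% were in first introns (95% Wilson interval 56.4 to 62.4%), whereas first introns made up 39.8% of the length of both. The density was 65.0 sites per Mb in first introns and 29.4 per Mb in later introns, a ratio of 2.21 (p = 8.86e-36, two-sided exact binomial test over sites). Mixed introns, at 61.1 per Mb, lay near first introns. Replicates 1, 2 and 3 gave ratios of 2.18, 2.09 and 2.11 (2.12 ± 0.05, SD, n = 3).

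The ratio was larger near TSSs. Up to 2000 bp from a TSS, first introns held 217 sites and later introns 75, at 84.8 and 32.6 per Mb. From there to 5000 bp the densities were 63.3 per Mb in first introns and 29.8 per Mb in later introns, and from 5000 to 10000 bp they were 48.7 and 27.7 per Mb. The ratios of first to later introns in these bins were 2.60, 2.12 and 1.76, and the adjusted p-values of the exact binomial tests were 5.95e-14, 5.95e-14 and 2.25e-06. First introns thus had fewer sites per Mb from bin to bin, and later introns had nearly the same density in each. In each replicate the nearest bin also had the highest ratio, with 2.62, 2.61 and 2.39.

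The length of the intron changed the comparison, in a split chosen after seeing the data. In introns of at most 2000 bp, the density was 73.2 sites per Mb in first introns and 9.92 per Mb in later introns, a ratio of 7.38 (adjusted p = 5.58e-16, exact binomial test over sites, 5 length bins). Later introns of this length held 39 sites in 3.93 Mb. In introns of over 2000 and up to 5000 bp the densities were 72.7 per Mb in first and 40.6 per Mb in later introns, and up to 10000 bp they were 82.1 and 34.6. From 10000 to 20000 bp they were 58.8 and 32.9. In introns over 20000 bp, 45.8 per Mb in first introns stood against 39.6 per Mb in later introns, a ratio of 1.16 (adjusted p = 0.304, exact binomial test), and the replicates gave 1.16, 1.21 and 1.31 (1.22 ± 0.07, SD, n = 3). In the longest introns a difference between the classes was therefore not detected. A site near a splice site can also have its summit in the neighbouring exon, which the rule leaves out, and the part of this in the values for short introns was not tested.

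**Figure D1:**
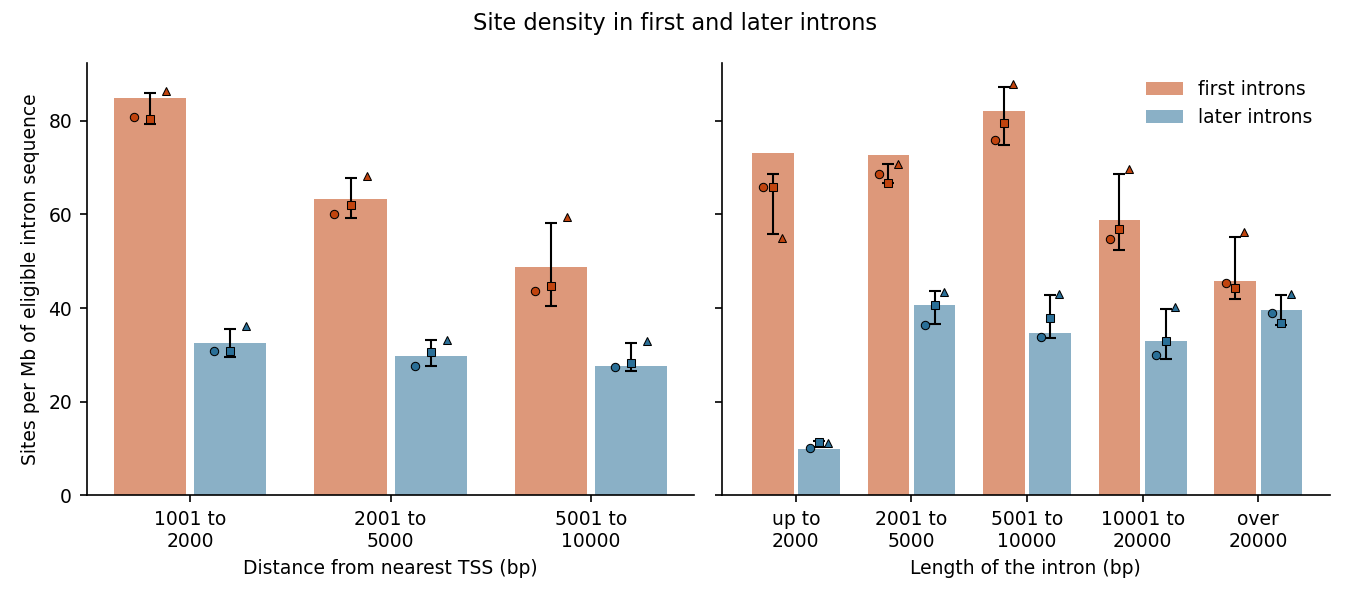
Sites per Mb of eligible intron sequence (y axis) in first and later introns, by distance from the nearest TSS (left panel) and by length of the intron (right panel, both in bp). Bars give the reproducible sites, points the 3 replicates, and error bars the mean and SD of the replicates. The bars of first introns stand at 84.8, 63.3 and 48.7 per Mb by distance, above later introns in every bin, and the 2 classes lie closest in introns over 20000 bp, at 45.8 and 39.6 per Mb.

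The distance from the 5′ splice site gave a similar pattern. This split was not among the planned tests, and such a distance cannot exceed the length of the intron. Within 500 bp of the 5′ splice site, 82.3 sites per Mb in first introns stood against 12.1 per Mb in later introns. The ratio was 4.20 from 500 to 1000 bp, 2.19 from 1000 to 2000 bp, 1.62 from 2000 to 5000 bp and 1.92 from 5000 to 10000 bp. Beyond 10000 bp the density was 34.4 per Mb in first introns and 42.4 per Mb in later introns, a ratio of 0.811 (adjusted p = 0.285, exact binomial test). Weaker regions of the pooled relaxed list, in any eligible intron but outside the reproducible sites, numbered 2087 in first and 2115 in later introns, a density ratio of 1.49.

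Binding at first-intron sites was no stronger than at later-intron sites. Signal in a replicate is given as relative signal, the deposited signal of the site's strongest overlapping peak in multiples of the median of the 4990 sites in that replicate. The median relative signal was 0.939, 0.974 and 0.934 at first-intron sites in replicates 1, 2 and 3, and 1.01, 1.06 and 0.982 at later-intron sites. The difference of the medians was -0.065 ± 0.017 (SD, n = 3), and first-intron sites were lower in 3 of 3 replicates, also with sites lacking a peak counted as lowest (-0.076 ± 0.009). Of first-intron sites, 46.6% lay above the median signal of all sites, against 51.1% of later-intron sites (adjusted p = 0.295, Fisher's exact test over sites). By definition, 50% of all 4990 sites lie above it.

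The replicates agreed on later-intron sites slightly more often, with a test just short of the threshold. Support by a replicate means an overlap with 1 of its 4990 strongest peaks. All 3 replicates supported 57.2% of first-intron sites and 65.4% of later-intron sites, against 56.9% of all reproducible sites, and the test of first against later introns missed it (Fisher's exact test, adjusted p = 0.0516). In the mixed class the share was 62.4%. Over all 1357 intronic sites, 828 were supported by 3 replicates, 307 by 2, 200 by 1 and 22 by 0.

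The motif was centred on intronic summits. GTGAAAG, searched on both strands within 100 bp of the summit, was present at 139 of 1357 intronic sites (10.2%), against 2.43% of windows of the same size 500 bp away, a ratio of 4.21 (p = 2.79e-18, exact McNemar test over sites). It was present at 8.5% of all reproducible sites. The intronic regions of the replicates gave ratios of 4.50, 4.53 and 2.71 (3.91 ± 1.04, SD, n = 3), and replicate 3 was the lowest. The full consensus, which contains part of the same letters, lay at 3.46% of intronic summits and 0.295% of flanks (ratio 11.8, p = 1.60e-11, exact McNemar test), and at 3.69% of all reproducible sites. At most 1 mismatch to it was found at 23.1% of intronic summits and 6.26% of flanks. GAGAGAG, the motif bound by the GAGA factor, was less centred, at 7.81% of intronic summits and 5.31% of flanks (ratio 1.47, p = 0.0107, exact McNemar test), and lay at 8.14% of all reproducible sites. For it, replicate 3 gave a ratio of 0.976, against 1.80 in replicate 1 and 1.85 in replicate 2.

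**Figure D2:**
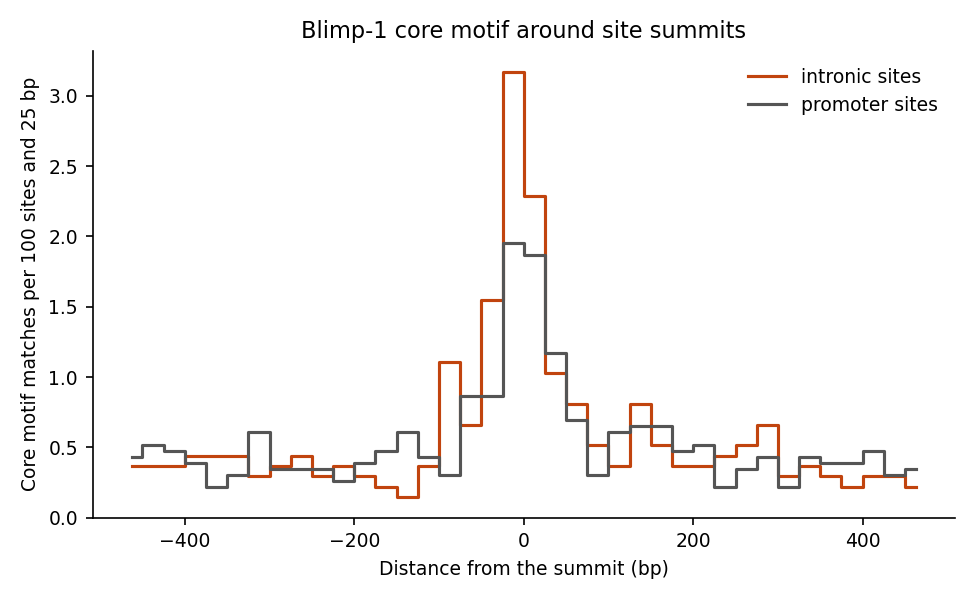
Matches of the Blimp-1 core motif per 100 sites in bins of 25 bp (y axis) by distance from the summit in bp (x axis), for intronic and promoter sites. The 2 bins that meet at the summit hold 3.17 and 2.28 matches per 100 intronic sites, against 1.95 and 1.87 per 100 promoter sites.

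First and later introns did not differ detectably in these motifs. GTGAAAG lay at 9.06% of first-intron and 12.3% of later-intron sites (adjusted p = 0.284), the full consensus at 3.36% and 4.18% (adjusted p = 0.625), and GAGAGAG at 7.05% and 7.86% (adjusted p = 0.625, Fisher's exact tests over 5 measures). The base composition of the windows was also alike, with 39.97% G and C at first-intron and 40.9% at later-intron summits. The share with GTGAAAG was 10.2%, 10.8% and 9.54% in the 3 distance bins from the TSS outward. In shares that were not tested, intronic sites with more signal more often carried the full consensus. It lay at 4.49% of the 312 sites with signal above the upper quartile of all sites. Above the median signal it lay at 4.05% of 666 sites, and at 2.89% of the 691 others. The strongest site with a full match ranked 75. In 5613 weaker intronic regions of the pooled relaxed list, outside the reproducible sites, the share was 1.59%.

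Promoter sites were compared with intronic sites in 5 measures, with p-values adjusted over the 15 tests of intronic sites against 3 other kinds of site. Of intronic sites, 49.1% lay above the median signal, against 53.5% of promoter sites (Fisher's exact test, adjusted p = 0.0474), a call lost in 3 of 9 alternatives. Over sites with a peak, the difference of the median relative signals was -0.092, -0.061 and -0.139 in replicates 1, 2 and 3. With sites lacking a peak counted as lowest, it was -0.092 and -0.050 in replicates 1 and 2 but 0.084 in replicate 3, so the direction in replicate 3 rests on leaving those sites out. GTGAAAG was more frequent, at 10.2% of intronic and 7.77% of promoter sites (Fisher's exact test, adjusted p = 0.0474), a call that 9 of 11 alternatives lost. The full consensus, at 3.46% and 3.52%, and GAGAGAG, at 7.81% and 9.81%, did not pass the threshold (adjusted p = 1 and 0.107, Fisher's exact tests). G and C made up 40.1% of intronic summit windows and 41.0% of their flanks, and 39.7% of promoter summit windows and 43.2% of theirs.

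Support by the replicates turned on replicate 3. All 3 replicates supported 61.0% of intronic and 53.9% of promoter sites (Fisher's exact test, adjusted p = 0.00044). Replicate 1 alone supported 81.6% of intronic and 86.1% of promoter sites, and replicate 2 supported 81.4% and 83.9%. Replicate 3 supported 80.1% of intronic sites but 65.6% of promoter sites, and it had no relaxed peak at all at 5.01% of intronic and 20.9% of promoter sites. Without replicate 3 the direction turned, with an odds ratio of 0.788 (adjusted p = 0.0340, Fisher's exact test). The density within 1000 bp of a TSS was also lowest in replicate 3, at 69.9 per Mb against 91.0 and 87.5 in replicates 1 and 2.

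All 3 replicates supported 61.0% of intronic sites and 53.3% of deep intronic sites (adjusted p = 0.0474, Fisher's exact test). Signal above the median was seen at 49.1% of intronic and 42.0% of deep sites (Fisher's exact test, adjusted p = 0.0534). No measure of the 5 passed the threshold against intergenic sites. On both sides of the limits of the distance rule the values were as follows, without a test. The 93 intronic sites up to 1200 bp from a TSS had a median deposited signal of 375 and support by all replicates at 57.0%, and the 117 sites in introns just inside the limit of promoter sites, from 800 to 1000 bp, had 340 and 48.7%. At the outer limit, 50 sites over 9000 bp from a TSS had 413 and 62%, and 57 deep sites up to 11000 bp had 332 and 56.1%.

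The strongest intronic site was also the strongest of all reproducible sites. It lay in intron 2 of Kdm2, a histone lysine demethylase gene (chromosome 3R, 9057249 to 9058029), 225 bp from the 3′ splice site and 4414 bp downstream of the TSS. Its relative signal was 27.5, 28.0 and 21.7 in the 3 replicates (25.7 ± 3.49, SD, n = 3). The next stood in the first intron of mol, a gene needed for the maturation of dual oxidase (chromosome 2L, 14995385 to 14996384), at 23.8, 21.2 and 25.9. The ranges of the Kdm2 and mol sites overlapped, so their order is within the spread between replicates. No other intronic site reached 20 in any replicate. Kdm2 held 2 further sites, at 1.58 ± 0.68 (SD, n = 3) and 0.979 ± 0.051 (SD, n = 2), and mol held none.

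The next site lay in the first intron of dyl, whose zona pellucida domain protein shapes the apical surface and cuticle (chromosome 3L, 4304029 to 4305210), at 17.2, 17.1 and 13.4. CG30377, to which the annotation gives no name, hosted the fourth on chromosome 2R from 7909265 to 7910028, at 16.1, 13.8 and 14.7. The fifth lay in intron 5 of Eip74EF, an ETS factor gene induced by ecdysone, at 15.9, 12.9 and 12.5 (chromosome 3L, 17577446 to 17578375). These 3 sites overlapped one another across replicates, and each was below every value of the Kdm2 and mol sites. The summit at Eip74EF lay 19511 bp from the 5′ splice site, but 1323 bp upstream of an internal TSS of the same gene. The site in CG30377 was nearest to the TSS of a different gene, CG12159, 6825 bp away.

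**Figure D3:**
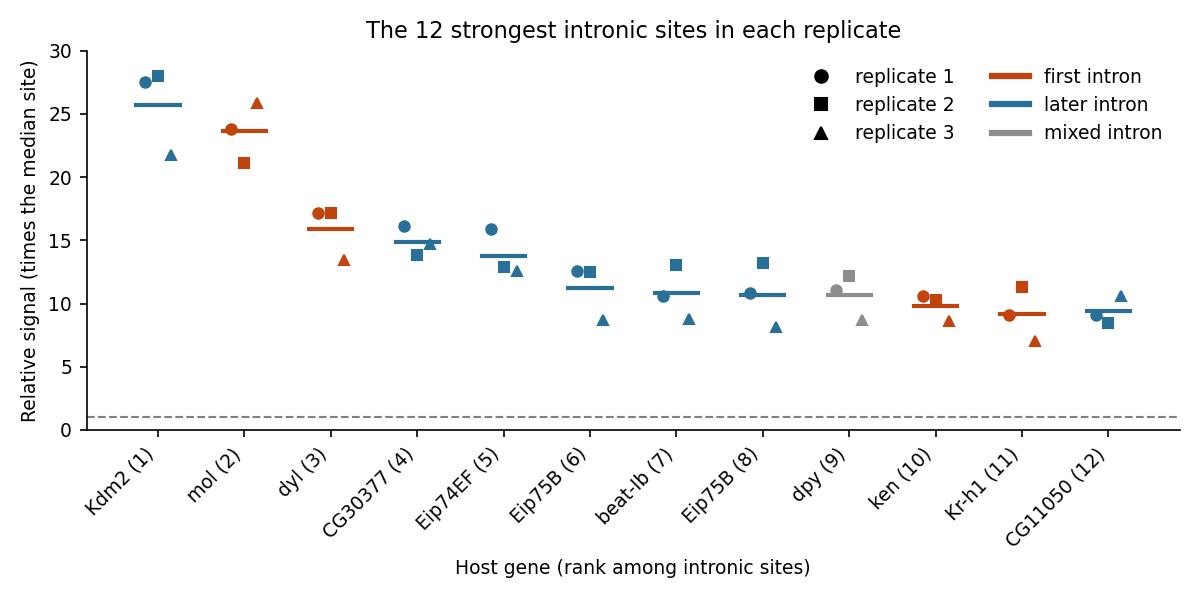
Relative signal of the 12 strongest intronic sites (y axis, in multiples of the replicate's median site; dashed line at 1) in each replicate, by host gene and rank. Points are replicates, horizontal bars their means, and colours the intron class. Kdm2 and mol stand at 21.2 or more in every replicate, and the other 10 sites lie between 7.03 and 17.2.

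The rest of the 12 strongest sites lay between 7.03 and 13.2 in all replicates. Eip75B, a nuclear receptor gene, hosted 2 of them, at 11.3 ± 2.21 and 10.7 ± 2.52 (SD, n = 3), both in 1 intron of 9742 bp. beat-Ib, of the Beaten path family of immunoglobulin domain proteins, hosted 1 at 10.8 ± 2.15, in an intron of 31085 bp, with the nearest TSS that of CG13244. The others were in dpy, which encodes a giant zona pellucida protein of the apical matrix (10.7 ± 1.81), ken, a zinc finger repressor gene (9.82 ± 1.08), CG11050 (9.37 ± 1.09) and Kr-h1, a zinc finger factor gene of the juvenile hormone response (9.15 ± 2.14). The fifth strongest first-intron site was in ush, which encodes a cofactor of GATA factors, at 7.90, 7.13 and 10.7. Of the 12 strongest, 4 were in first introns, 7 in later introns and 1 in the mixed class. A match to the consensus with at most 1 mismatch lay at 7 of the 12 and with at most 2 at 12 of the 12, and a full match at 0. In windows 500 bp from the same 12 summits, the counts were 2, 5 and 0. Matches with at most 2 mismatches are common, at 68.5% of all intronic summits and 50.4% of their flanks.

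The strongest site with a full match was in Pdp1, a bZIP factor gene of the clock (chromosome 3L, 7818400 to 7819045), and ranked 75 among the intronic sites. Its relative signal was 3.37, 3.80 and 3.34. Psa, a puromycin-sensitive aminopeptidase gene, followed at 3.75, 3.55 and 2.53, then Cpr50Ca, a cuticle protein gene, at 3.07, 3.77 and 2.55, and qless, an enzyme gene of coenzyme Q synthesis, at 3.20, 3.65 and 2.04. A second site in Pdp1 stood at 2.88 ± 0.19, and siz, which encodes an exchange factor for Arf GTPases, at 2.73 ± 0.65 (SD, n = 3). Neighbours in this order overlapped across the replicates, and the values of all 6 sites lay under those of the 12 strongest.

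Intronic sites fell into 769 host genes. Of 6983 protein-coding genes with any eligible intron sequence, these were 11%, and the replicates gave 734, 767 and 794 hosts (765 ± 30.1, SD, n = 3). One site was found in 444 hosts, 2 in 164, 3 in 87 and 4 in 36, and 38 hosts with 5 or more held 239 sites (17.6%). Hosts had a median of 10.1 kb of eligible intron, and genes without a site 0.442 kb. Among genes in the top quartile of eligible intron, from 4.59 to 158 kb, 34.0% were hosts (32.6, 34.1 and 37.1% in the replicates), and in the bottom quartile 0 of 1745 were. Sites in first introns alone were found in 342 hosts, in later introns alone in 174 and in mixed introns alone in 127, while 126 hosts had more than 1 class.

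Hosts often carried a promoter site as well. A promoter site lay at a TSS of 397 hosts (51.6%), against 22.1% of genes with eligible intron but no intronic site. In the top quartile of eligible intron the shares were 51.9% of hosts and 22.7% of non-hosts. The summit lay downstream of a nearest TSS of its host at 859 sites (63.3%) and upstream of one inside the host at 249 (18.3%). For the other 249 sites a TSS of a different gene was nearer. Among these were the strongest sites in Dad, exp, mew, Eip78C, gce, Pdp1 and ush. In first introns the nearest TSS belonged to a host at 88.9% of sites and in later introns at 66.6%. Another intronic site lay within 2000 bp for 522 sites (38.5%), and 62 sites stood in introns of more than 1 gene, where they count for each. The strongest sites in br, Hr3 and Zasp52 were among these 62.

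The hosts with most sites were led by Eip75B, with 18 in 73.9 kb of eligible intron, 10 of them in later, 7 in mixed and 1 in first introns. Taranis (tara), a chromatin-associated cell cycle regulator gene, had 10 sites, all in its first introns, within 26.8 kb. The strongest of these reached 3.49 ± 0.77 (SD, n = 3). Schnurri (shn), which encodes a zinc finger factor of the BMP pathway, had 9 sites, of which the strongest reached 3.06 ± 0.62, and CG1677 had 9 in later introns in 83.2 kb. A further 3 genes had 8: ftz-f1, the nuclear receptor gene, Raf, which encodes the kinase of the MAP kinase cascade, and Oatp74D, which encodes a transporter that imports ecdysone into cells. Per kb of eligible intron, Oatp74D had 0.452 sites, tara 0.372, Raf 0.345, ftz-f1 0.320, Eip75B 0.243, shn 0.233 and CG1677 0.108. Raf and CG1677 had no promoter site, and the other 5 had one.

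Genes of the ecdysone hierarchy hosted intronic sites in the highest share of the 15 gene lists counted. Of 18 ecdysone regulators with eligible intron, 14 were hosts (77.8%), against 11% of all genes with eligible intron, and the share was 83.3% in each replicate. They held 67 sites, at 178 per Mb of their eligible intron, against 47.1 over all such genes. The lists were chosen with results of these data known, and genes of this list have more eligible intron than most (a median of 15.3 kb, against 0.614 kb for all), so no test is given. All genes of this list with eligible intron except Met lie in the top quartile, from 4.59 kb, where 34.0% of all genes were hosts. The medians of eligible intron over the 15 lists ran from 0.601 to 15.3 kb, and most lay above that of all genes. The 4 without a site were Eip93F, Hr38, Hr39 and Met, which has 0.069 kb of eligible intron, and usp had none to test.

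Among the primary response genes, Eip74EF had 6 sites, from 0.477 to 13.8 times the median site, and br, which encodes the Broad zinc finger factors, had 2, at 1.20 ± 0.10 and 0.773 ± 0.216 (SD, n = 3). Of the 18 sites of Eip75B, 5 stood above 7 in the mean of the replicates. One of its weaker sites, at 2.14, 3.03 and 1.74, held a full match to the consensus (chromosome 3L, 17962667 to 17963095). The receptor gene EcR had 7 sites, of which the strongest was at 2.90, 3.51 and 2.17, and the coactivator gene tai had 1, at 1.07, 1.39 and 1.62. E23, an ABC transporter gene known to dampen ecdysone signalling, had 4, led by one at 7.07, 7.01 and 5.21. The values of these leading sites of EcR and E23 did not overlap, and E23 was the higher.

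Among later-acting receptors, ftz-f1 had 8 sites. The strongest stood at 8.79, 8.41 and 6.62 in a later intron (chromosome 3L, 18771283 to 18772012), and 3 more stood at 3.57 or above in the mean. Hr4 had 6, the strongest at 5.46, 4.11 and 4.62, and 1 of the 6 held a full match (chromosome X, 1990035 to 1990317). Eip78C had 3, the strongest at 4.57, 4.69 and 5.98, and Hr3 had 3, all under the median site in the mean, with the highest at 1.12, 0.848 and 0.891. In the Blimp-1 gene, 3 sites lay in first introns, the strongest at 5.74, 8.10 and 3.69 (chromosome 3L, 5633497 to 5634608). The transgene holds Blimp-1 sequence too, and signal from the native gene and from the transgene cannot be told apart there. Of the juvenile hormone genes, Kr-h1 had 2, at 9.15 ± 2.14 and 1.22 ± 0.16, and gce, a receptor gene, had 2, at 0.845 ± 0.163 and 0.613 ± 0.120 (SD, n = 3).

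**Figure D4:**
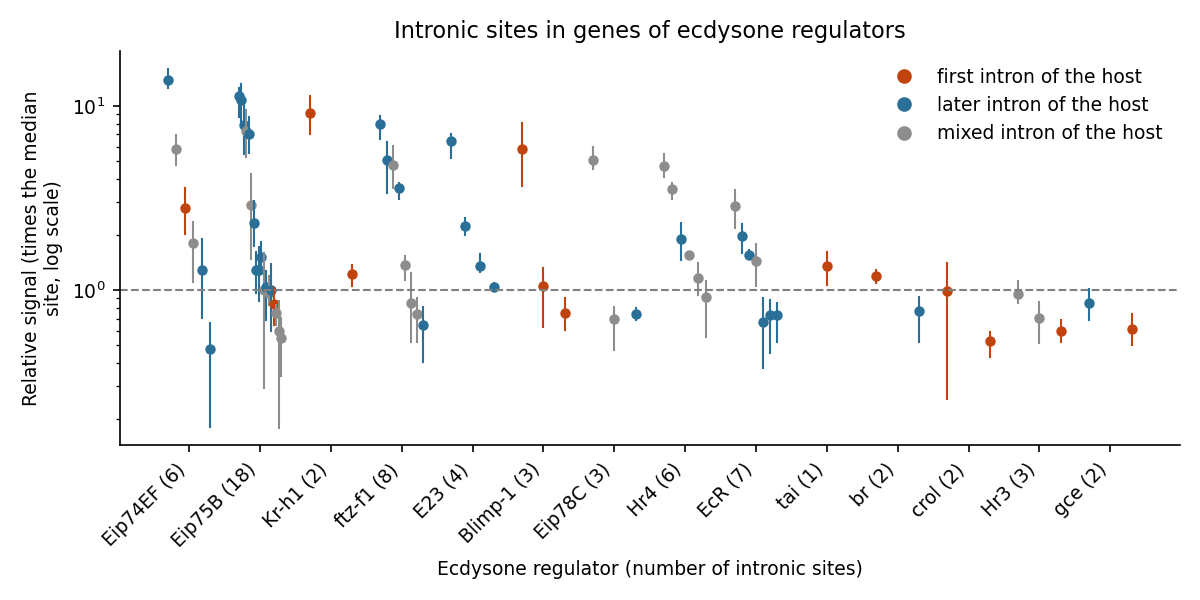
Relative signal (y axis, log scale, in multiples of the median site; dashed line at 1) of the 67 intronic sites in 14 ecdysone regulator genes. Points are means over the replicates with a peak, vertical lines span the lowest to the highest replicate, and colours give the class of the intron in the host. Eip74EF, Eip75B and Kr-h1 reach 9.15 or more, whereas tai, br, crol, Hr3 and gce stay at or under 1.36.

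Genes for the apical matrix, cuticle and trachea are given next, beside 11% of hosts among all genes with eligible intron. Medians of eligible intron were 4.76 kb for zona pellucida genes, 3.21 kb for chitin and tanning and 9.67 kb for trachea. The median over all genes was 0.614 kb. The medians of zona pellucida and tracheal genes lie in the top quartile of eligible intron, where 34.0% of all genes were hosts. That of chitin and tanning lies in quartile 3, where 9.62% were. Each list also holds genes of other quartiles. Of 13 zona pellucida genes with eligible intron, 6 were hosts (46.2%). With dpy, which the list held under its older symbol dp and which had 2 sites led by one at 11.1, 12.2 and 8.68, they were 7 of 14. Beside dyl and dpy, dy reached 2.77, 2.16 and 3.86 and pot 1.54, 1.46 and 2.51. Of 24 genes of chitin and tanning, 8 were hosts (33.3%), led by Cht7, a chitinase gene, at 8.12, 7.83 and 5.48. Next were verm, a chitin deacetylase gene, at 2.84, 4.86 and 2.46, and exp (expansion) at 3.76, 4.06 and 2.15. Cht7 stood above verm and exp in every replicate. Of 12 tracheal genes 6 were hosts, with crb, the apical polarity gene crumbs, at 3.14, 2.68 and 4.21, grh, which encodes an epidermal transcription factor, at 2.93, 2.62 and 2.85, and pyd, a junction scaffold gene, at 1.69, 3.55 and 1.08.

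Regulators of the actin cytoskeleton were hosts in 11 of 21 cases (52.4%; 57.1, 61.9 and 57.1% in the replicates). The strongest sites were in sn, which encodes the actin bundling protein fascin, at 4.25, 4.27 and 3.50, mbc, a Rac exchange factor gene, at 2.87, 3.17 and 2.61, and Moe, which encodes moesin, at 1.93, 1.29 and 2.33. Of 24 genes of adhesion, junctions and matrix, 4 were hosts (16.7%), led by mew and mys, which encode integrin subunits, at 2.34 ± 0.66 (SD, n = 3) and 1.43 ± 0.37 (SD, n = 2), and Fas3 at 0.848 ± 0.165 (SD, n = 3). Eligible intron was of a like amount in both, with medians of 9.13 and 8.07 kb, within the top quartile of genes, where 34.0% were hosts. The share of the cytoskeleton list lay above that value and the share of the adhesion list under it. Both lists also hold genes with less eligible intron than that quartile, so the value is not a matched reference for a whole list. Per Mb of eligible intron, they held 104 and 34.0 sites, against 47.1 over all genes.

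Signalling genes hosted sites in 16 of 40 cases, or 17 of 41 with Delta, listed under its older symbol and with 1 site at 0.991 ± 0.627 (SD, n = 3). The strongest were in Dad, the inhibitory Smad gene, at 4.90, 5.10 and 2.88, Egfr, the EGF receptor gene, at 2.25, 3.09 and 1.15, and nkd, a Wnt feedback inhibitor gene, at 2.12, 1.88 and 2.66. Of 15 genes of insulin signalling and growth 6 were hosts, among them ImpL2, which encodes a secreted insulin antagonist (2.77, 2.15 and 3.45), Myc (1.15 ± 0.42) and InR, the insulin receptor gene (0.815 ± 0.284). Of 16 death and autophagy genes 5 were hosts, with the autophagy kinase gene Atg1 at 4.12, 6.43 and 2.83, the death activator gene hid at 1.04, 1.08 and 0.227, and Atg17 at 0.835 ± 0.196 (SD, n = 3). The Atg1 site stood in introns of 2 genes. In the signalling, insulin and death lists 40%, 40% and 31.3% of genes were hosts, against 11% of all genes with eligible intron. Their medians of eligible intron were 8.72, 0.775 and 0.601 kb, against 0.614 kb for all genes. The signalling median lies in the top quartile of eligible intron, where 34.0% of all genes were hosts. The insulin median lies in quartile 3, where 9.62% were, and the death median in quartile 2, where 0.401% were. Each list also holds genes of other quartiles.

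In the clock list, vri and Pdp1, which encode bZIP factors of the second clock loop, had 5 and 6 sites, the strongest at 4.31 ± 0.87 and 3.50 ± 0.26, and sgg, the kinase gene shaggy, had 2, led by one at 1.85 ± 0.47 (SD, n = 3). per, tim, Clk and cyc, with 1.99, 6.04, 5.01 and 0.07 kb of eligible intron, had none. These made 3 hosts of 11 genes, or 4 of 12 with dco, which the list held under its older symbol dbt and which had 1 site at 2.03 ± 0.33 (SD, n = 3). The chromatin list had 7 hosts of 16 (43.8%). After Kdm2, these were led by psq and Trl, which encode proteins that bind GAGA sequences, with 6 and 2 sites and the strongest at 7.13, 5.88 and 6.36 in psq and 5.84, 4.67 and 7.07 in Trl. Of the other demethylase genes tested, Kdm4B had 1 site, at 0.851 ± 0.205 (SD, n = 3), and Kdm3, Kdm4A, Kdm5, Utx and Su(var)3-3 had none. The genes without a site had little room for one, with 0.149, 0.056, 0.332, 0.56 and 0.189 kb of eligible intron. Kdm2 had 4.01 kb. In quartiles 1 and 2 of eligible intron, up to 0.613 kb, 0 and 0.401% of genes were hosts. The strongest sites of psq and Trl overlapped between the replicates. The shares of hosts, 27.3% for the clock and 43.8% for chromatin, stand beside 11% of all genes with eligible intron. Medians of eligible intron were 5.01 kb for the clock and 2.39 kb for chromatin, against 0.614 kb for all genes. The clock median lies in the top quartile, where 34.0% of all genes were hosts, above the clock share. The chromatin median lies in quartile 3, where 9.62% were hosts. Each list also holds genes of other quartiles.

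In the remaining lists the shares of hosts ran from 16.7 to 21.7%. Hosts were 5 of 23 for axon guidance and neurons (21.7%), 6 of 29 for imaginal disc patterning (20.7%), 3 of 16 for muscle (18.8%) and 2 of 12 for the fat body (16.7%). In these, Ten-a, a teneurin gene, stood at 2.11 ± 0.61, robo2 and fra, axon guidance receptor genes, at 1.27 ± 0.32 and 0.967 ± 0.204, bab1, a BTB factor gene of the leg, at 3.98 ± 0.23, bi, a T-box gene, at 1.20 ± 0.06 and hth, a homeobox gene, at 0.928 ± 0.325 (SD, n = 3). Zasp52, of the muscle Z disc, stood at 1.86 ± 0.43, Mef2, the muscle regulator gene, at 1.16 ± 0.11 (SD, n = 3) and Tm1, a tropomyosin gene, at 1.36 ± 0.25 (SD, n = 2). Lsd-2 and the lipase gene bmm, both of lipid droplets, had 0.926 ± 0.156 and 0.833 ± 0.247 (SD, n = 3). Per Mb of eligible intron, the lists held 14.3 sites for neurons, 24.7 for discs, 38.7 for muscle and 86.3 for the fat body, against 47.1 over all genes. All 4 shares lay above the 11% of all genes with eligible intron. The medians of eligible intron were 11.2 kb for neurons, 8.44 kb for discs and 7.83 kb for muscle, within the top quartile, where 34.0% of genes were hosts, and 1.93 kb for the fat body. Each list also holds genes of other quartiles.

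**Figure D5:**
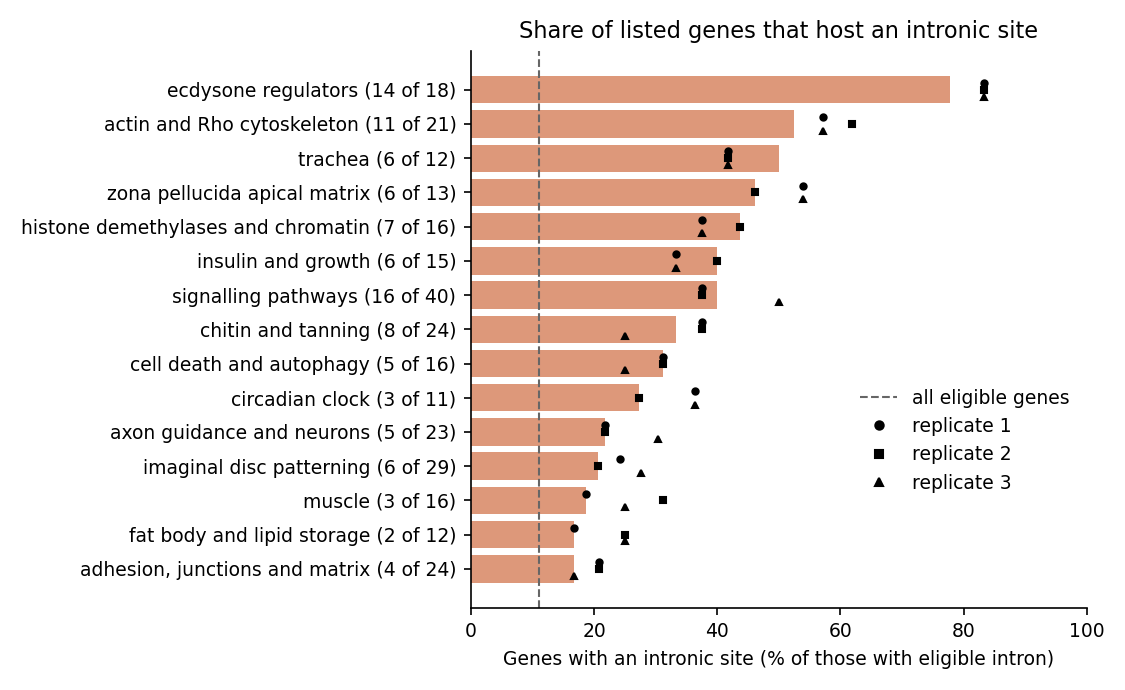
Share of genes in each list that host an intronic site (x axis, % of the genes with eligible intron sequence), with the number of hosts after each name. Bars are the reproducible sites, points the 3 replicates, and the dashed line all genes with eligible intron, at 11%. Ecdysone regulators stand highest at 77.8%, and fat body and adhesion genes lowest, at 16.7%.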

How the data were processed

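Binding was measured by ChIP-seq in 3 biological replicates of 1 group. The deposited peak lists in narrowPeak layout give a signal per peak, read from column 7, and a summit, from column 10. Per the deposited text with each library, these are relaxed lists of 30000 peaks for each replicate and for the pool, and a list cut on an irreproducible discovery rate. The sources used here do not give the scaling of the signal, the aligner or the peak caller, and the dm3 lists were not used here. The lists carry no reads, so the depth of the libraries is unknown.

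On dm6, 5573 thresholded peaks were merged where they overlapped by at least 1 bp into 4990 sites, each with its strongest summit; a summit offset equal to the peak's width, in 4 peaks, was set to the last base. Genes, exons and TSSs came from the Ensembl release 115 annotation (FlyBase 6.54), without annotated transposable elements. Coordinates count from 1. Relative signal used the highest overlapping relaxed peak of each replicate, and its mean and SD leave out replicates with none. A summit inside several introns took the length of the shortest. Shares were compared by two-sided exact tests in scipy 1.17.1 (binomial, Fisher, McNemar), with Benjamini-Hochberg adjustment within 15, 5, 3 or 6 tests, and the functions were tested on simulated data. Sites, not animals, are the units, and neighbouring sites are not independent, so p-values describe these lists. Replicate SDs (n = 3) stand beside them. The members, gene lists and tests were chosen with earlier results of these data known.

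The named genes are the hosts of the 12 strongest sites, of the 5 strongest in first and in later introns, and of the strongest full matches, the 5 hosts with most sites and those tied with them, every ecdysone regulator that hosts a site, and the 3 hosts with the strongest site in each other list. The list symbols Dl, dp, Tor and dbt are older names, which RefSeq's synonyms tie to Delta, dpy, mTor and dco; counts without and with them are given, except that mTor, without a site, would make insulin and growth 6 of 16. Alternatives changed merging, distance, annotation, intron class, motif window, flank, signal limit and support, and left out each replicate.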

Additional observations from a re-analysis of the deposited data

How the results depend on the processing

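Values are ratios for densities and for motif centring, odds ratios for shares, and counts. The density of first over later introns kept its direction in 14 of 14 alternatives and its call in 13. It was 1.16 (p = 0.304, exact binomial test) in introns longer than 20000 bp, a split added after seeing the data. Motif centring at intronic sites kept its call in 12 of 12 (2.52 to 6.31). With sites above the median signal the counts were 666 sites and 463 hosts, and with sites supported by all replicates 828 sites remained. Leaving out each replicate gave 889 to 966 sites, and, against promoter sites, 0.808 to 0.843 for the share above the median signal, 1.18 to 1.42 for GTGAAAG and 0.788 to 1.52 for support, turned round without replicate 3. The share above the median missed the threshold without replicate 1, and GTGAAAG without replicate 1 or 2. For the share above the median signal, first against later introns turned to 1.03 with sites supported by all replicates. Support for first against later introns passed the threshold with an overlap of 50% of the site (0.701). Against promoter sites, the share above the median missed the threshold within 5000 bp (0.845) and with exons of protein-coding genes alone (0.842). The same comparison for GTGAAAG missed it with single peaks (1.32), sites above the median (1.29), full support (1.24), a limit of 5000 bp (1.40), coding exons alone (1.36) and windows of 50 bp (1.37) and 200 bp (1.15). The full consensus, never past the threshold, turned direction within 5000 bp (1.08), with TSSs of any gene (1.02), coding exons alone (1.00) and windows of 50 bp (1.14) and 200 bp (1.06). GAGAGAG passed it with windows of 200 bp (0.754). The causes of these changes were not tested.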
